A study of Mus musculus with 44 samples.

Results

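The proteasome is the protease that destroys proteins tagged with ubiquitin, and its genes were followed here in the brain and liver of mice fed a control diet (CD) or a ketogenic diet (KD). Members were all protein-coding genes whose GENCODE M21 symbol starts with Psma, Psmb, Psmc, Psmd, Psme, Psmf or Psmg and a number, without the inducible catalytic subunits Psmb8, Psmb9 and Psmb10, and they were found by Ensembl identifier. This rule took 47 of the 54446 genes in the count table. Of the 47, 31 were subunits of the 26S particle, 7 were assembly chaperones, 5 were activators or an inhibitor, and 4 were tissue-restricted or not subunits at all. RNA was sequenced from 44 samples in 6 groups, whose labels give tissue, diet and age, and no engineered allele is named. The mice were C57BL/6 males from an aging colony, put on the study diets at 12 months of age. Brains of 12 months came from 5 mice on CD and 7 mice after a one-week KD, and brains of 26 months from 8 mice on CD and 8 on a cyclic KD. Livers, all of 26 months, came from 8 mice on CD and 8 on the cyclic KD. In the cyclic KD the diet alternated by the week between KD and CD from 12 to 26 months of age. Tissue was taken in a CD week, so the old KD groups were not on KD at that moment. The labels do not say which liver and brain came from the same mouse.

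The 26S proteasome is built of a barrel-shaped 20S core and a 19S particle that caps it. In the core, rings of alpha subunits (Psma genes) gate rings of beta subunits (Psmb genes), of which Psmb5, Psmb6 and Psmb7 carry the active sites. The base of the 19S particle holds the Psmc ATPases, which unfold the substrate and thread it into the core, and its lid removes ubiquitin through Psmd14. PA28 alpha and beta (Psme1 and Psme2) form an alternative cap that is induced by interferon gamma together with the immunoproteasome subunits, and the transcription factor Nfe2l1 raises the subunit genes together when proteasome activity is blocked.

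Counts per library ranged from 7447742 to 12744415 in the brain and from 6879726 to 12682087 in the liver, and the 47 genes held between 0.194% and 0.267% of them. The tissue labels matched their markers. The summed level of 8 neuron markers was 3357 to 5576 CPM (a gene's counts relative to its library's TMM-scaled total) in the brains and 9.73 to 37.1 CPM in the livers, and that of 8 hepatocyte markers was 17025 to 47335 CPM in the livers and at most 698 CPM in the brains. Libraries of a group also differed from each other. The predicted gene Gm10800 held over 0.01% of the counts in 6 livers, 1 on CD and 5 on KD, and over 0.5% in 4 old brains, 1 on CD and 3 on KD, against at most 0.0017% in the 12-month brains. In every 26-month brain Gm10800 held at least 0.0347%, so in the brain it also differed with age. The difference was not limited to Gm10800. The 6 livers high in it had 42868 to 47702 genes with a count, against 25030 to 28259 in the other livers. The 26-month brains had 31438 to 44376 genes with a count, against 30019 to 31181 in the 12-month brains. The cause of these added genes was not tested. Of the members, Psmb11 moved with Gm10800 in the livers (below). The sum of 8 liver macrophage markers ran from 234 to 5993 CPM in the CD livers and from 212 to 2825 CPM in the KD livers. In these bulk samples, fewer cells of a type and less RNA per cell cannot be told apart.

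Of the 47 genes, 39 had a promoter of 300 bases, from 250 before to 50 after the start, in the RefSeq table for GRCm38.p6. On either strand, the core of the interferon-stimulated response element, which is GAAA, any 2 bases and GAAA, lay in 5 of the 39 (12.8%) against 3.99% of the promoters of 27025 genes. The core of the antioxidant response element, TGACNNNGC, to which Nfe2l1 binds with a small Maf protein, lay in 6 of the 39 (15.4%) against 13.99% of all genes, and the CCAAT box in 14 (35.9%) against 41.1%. The first of these shares was above its background and the other two were close to theirs. The promoters with the interferon element are shown with 10 bases on each side and the element in capitals, since PA28 is the part of the proteasome known for its induction by interferon.
Psme1, chr14:55578493-55578522 on the plus strand: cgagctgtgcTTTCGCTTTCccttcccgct
Psmb3, chr11:97703261-97703290 on the plus strand: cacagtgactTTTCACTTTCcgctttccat
Psmd4, chr3:95042675-95042704 on the minus strand: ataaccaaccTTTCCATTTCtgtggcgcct
Psmd9, chr5:123228021-123228050 on the plus strand: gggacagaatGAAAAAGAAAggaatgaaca
Psmg4, chr13:34162969-34162998 on the plus strand: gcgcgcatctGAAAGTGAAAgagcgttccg
In Psme1 and Psmg4 the element began 9 and 15 bases after the start, and in the other promoters it lay before the start. Of the catalytic subunits, Psmb5 and Psmb6 held the antioxidant core before the start, here in capitals in the same way.
Psmb5, chr14:54618024-54618052 on the minus strand: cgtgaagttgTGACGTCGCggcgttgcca
Psmb6, chr11:70525338-70525366 on the plus strand: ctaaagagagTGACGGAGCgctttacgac
Psme1 and Psme2 lie close together on chromosome 14 on opposite strands, with Emc9 between them. The 60 bases before their starts, shown because these were the members that differed most between the tissues, hold none of the 3 motifs.
Psme1, chr14:55578434-55578493 on the plus strand: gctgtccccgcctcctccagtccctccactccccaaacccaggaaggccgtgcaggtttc
Psme2, chr14:55591102-55591161 on the minus strand: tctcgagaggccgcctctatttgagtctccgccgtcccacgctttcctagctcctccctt
No letters of the interferon element as written here were found in the 300 bases at the start of Psme2. A match of letters is a description of the promoter and was not tested against binding.

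Levels between genes were compared as CPM per kb of the transcript with the longest coding sequence. In the brain at 26 months on CD, the 31 subunits of the 26S particle ran from 11.5 for Psmb5 to 55.1 for Psmc1, a range of 4.78-fold, with a median of 32.8. In the liver of the same age and diet they ran from 16.8 for Psma2 to 89.8 for Psmb2, a range of 5.35-fold, with a median of 41.8. Subunits that stand in the particle in equal numbers were thus unequal as RNA. These orders depend on the length used. With the union of all exons in place of this transcript, 18 of 28 highest or lowest genes of a subcomplex and tissue were the same. This length was chosen after seeing the data. The chymotrypsin-like subunit Psmb5 was the lowest of the beta ring in both tissues, at 11.5 ± 2.23 in the brain and 17.3 ± 3.65 in the liver (SD, n = 8). The other catalytic subunits, Psmb6 and Psmb7, stood at 43.2 ± 4.19 and 36.5 ± 2.54 in the brain. Per kb of exon union Psmb5 and Psmb7 had 11.5 and 12.4 in the brain, and in the liver Psmb7, at 15.4, lay below Psmb5, at 17.3. In the count annotation 12.1% of the exon bases of Psmb5 are shared with the microRNA gene Mir686 on the same strand, which had no counts. Members that share exon bases with an expressed gene included Psmb7 (11.8% with Nek6, at 52.2 CPM), Psmd13 (10.1% with Sirt3, at 34.8 CPM) and Psmc3 (8.25% with Slc39a13, at 24.7 CPM), all on opposite strands.

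The order within the other subcomplexes was as follows, again in CPM per kb of the old CD groups. In the alpha ring Psma1 was highest in both tissues, at 47.4 ± 2.89 in the brain and 69.6 ± 7.81 in the liver, and Psma2 lowest, at 16.5 ± 1.51 and 16.8 ± 1.57. Per kb of exon union Psma6 led in both, at 29.5 and 48.4, and Psma4 was lowest in the brain, at 9.27. In the beta ring Psmb2 led in both, at 54.9 ± 4.21 and 89.8 ± 11.2. Among the ATPases Psmc1 led in both, at 55.1 ± 4.07 in the brain and 59.4 ± 6.71 in the liver, with Psmc5 within the spread of it in the brain, at 51.6 ± 6.76, and well under it in the liver, at 32.8 ± 7.26. The lowest ATPase was Psmc4 in the brain, at 25.6 ± 2.30, within the spread of Psmc3 at 25.9 ± 2.31, and Psmc3 in the liver, at 27.4 ± 6.03. Per kb of exon union Psmc5 led the brain ATPases, at 48.7 against 45.3 for Psmc1, and Psmc2 was lowest in both tissues, at 11.1 and 14.8. In the base the scaffold Psmd2 was highest, at 41.6 ± 3.12 and 54.5 ± 8.70, and the ubiquitin receptor Psmd4 lowest, at 30.04 ± 2.97 and 38.9 ± 8.54. In the lid Psmd8 was highest in both, at 36.3 ± 2.72 and 89.1 ± 12.6, and Psmd13 lowest, at 14.4 ± 0.976 and 20.2 ± 2.56, but per kb of exon union Psmd7 led in the brain, at 22.9 against 18.3 for Psmd8. The chaperones, which act on the growing particle and are not part of it, were lower than most subunits. They ran in the brain from Psmg3 at 1.94 ± 0.254 to Psmd5 at 12.8 ± 0.913, and in the liver from Psmg3 at 3.75 ± 1.55 to Psmg1 at 17.1 ± 5.56. Among activators, the nuclear PA28 gamma (Psme3) led in the brain, at 39.3 ± 3.43, and PA28 alpha (Psme1) in the liver, at 66.5 ± 15.1, and the inhibitor PI31 (Psmf1) was lowest in both but for its overlap with Psme2 in the brain, at 8.26 ± 0.679 against 8.52 ± 1.35. Per kb of exon union Psme3 led in the liver as well, at 36.04 against 33.5 for Psme1, and Psme2 was lowest in the brain, at 4.65.

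**Figure D1:**
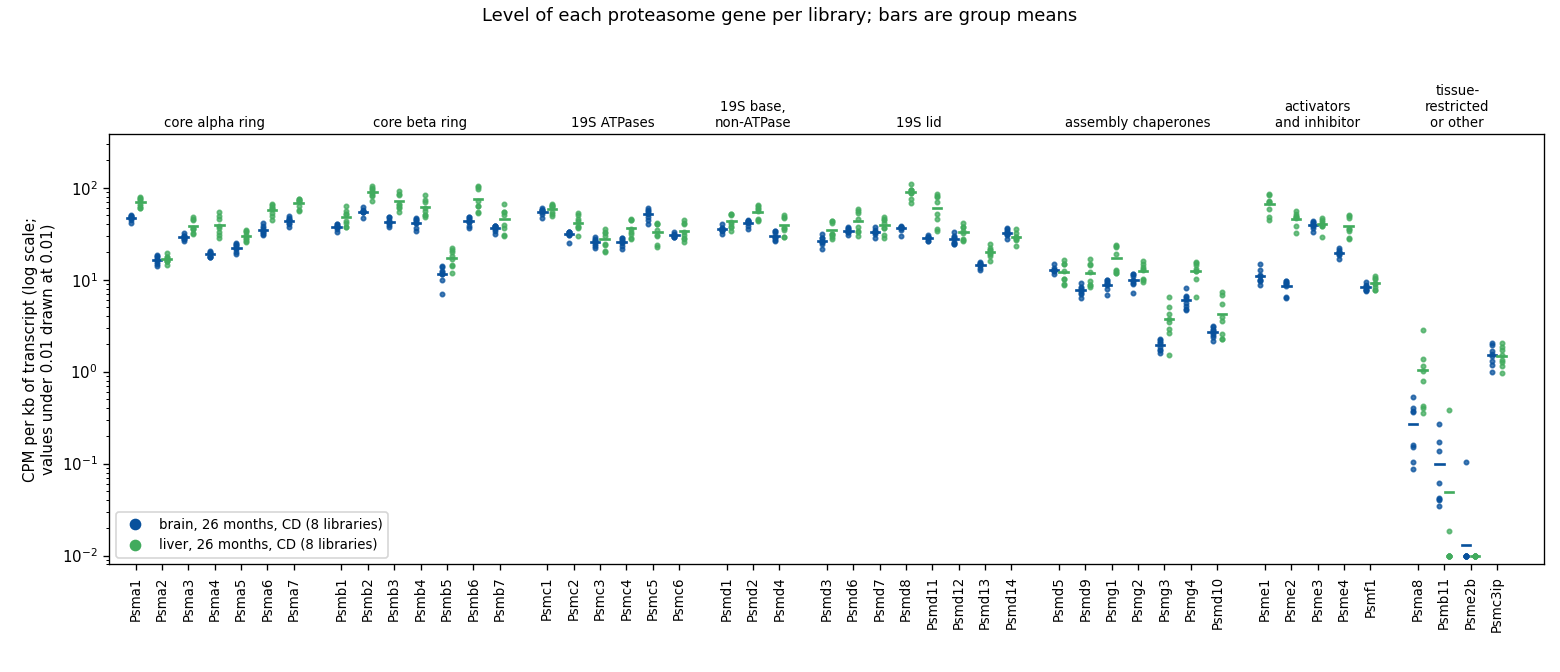
Level of each of the 47 genes in the 8 brains and 8 livers of 26 months on CD, in CPM per kb of transcript on a log axis, with a point for each library and a bar for the group mean. Psme1 and Psme2 show the widest gap between tissues, Psmc5 is the member with the clearest gap in the other direction, and Psma8, Psmb11 and Psme2b lie near or at 0.

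Of the 4 members outside the particle, Psma8, the alpha subunit of the testis, had 1 to 51 counts per library, with 51 in CD liver 5. Psmb11, the beta subunit of the thymic cortex, had 7 to 25 counts in exactly the 6 livers with high Gm10800 and 0 or 1 in the 10 others, and 0 to 10 counts in the brains. Psme2b, a retrocopy of Psme2, had at most 2 counts anywhere. Psmc3ip carries the name of a subunit it binds but is a factor of meiotic recombination, and it had 4 to 33 counts. Low counts made Psmb11, Psme2b and, outside the comparison of liver diets, Psma8 drop out of the tests, which left 45 members tested between the liver diets and 44 elsewhere. The annotation names 4 pseudogenes after members, with at most 4 counts each.

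Members varied little between mice. The median SD of log2 CPM over the members was 0.071 in the young and 0.13 in the old brains on CD, against 0.17 and 0.24 over all genes of at least 1 CPM. In the CD livers it was 0.28 against 0.48. Genes with few counts vary more by counting alone, and no set of genes matched to the members by level was used. Under TMM scaling, spread in the liver was shared by the 31 subunits of the 26S particle. Their median deviation from the group mean ran from -0.31 to 0.32 over the CD livers and from -0.33 to 0.29 over the KD livers, on the log2 scale. CD livers 2, 4 and 8 and KD liver 13 were the highest, and these also had the 4 lowest TMM factors, 0.740 to 0.814. As a share of all counts, which TMM does not enter, the 47 genes held 0.230% to 0.267% over the CD livers. By this share CD livers 5 and 7, at 0.260% and 0.267%, stood beside CD livers 2, 4 and 8, at 0.261% to 0.266%. The part of the scaling in their level was not tested.

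The first comparison asks whether the members differ between liver and brain on one diet at one age. Liver carried more proteasome RNA than brain at 26 months on CD. Of 44 members tested, 31 were called higher and 1 lower in the liver by edgeR's quasi-likelihood test at an adjusted p under 0.05, where 36% of all 20463 genes tested were called higher and 41% lower. In all, 40 of the 44 had a log2 fold change above 0, against 48% of all genes, and 34 had an unadjusted p under 0.05, against 78.3% of all genes. The median log2 fold change was 0.42 for members and -0.069 for all genes. This comparison depends on how tissues are scaled to each other. By total counts alone, 20 members were higher and 5 lower, where 6109 of the 20463 genes were higher and 9533 lower. The median of members was then 0.16 and that of all genes -0.32, so the difference between the 2 medians changed little, from 0.49 to 0.47. The 20 members higher by total counts were higher under TMM and RLE scaling as well, and the lower member that held under all 3 was Psmc5.

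**Figure D2:**
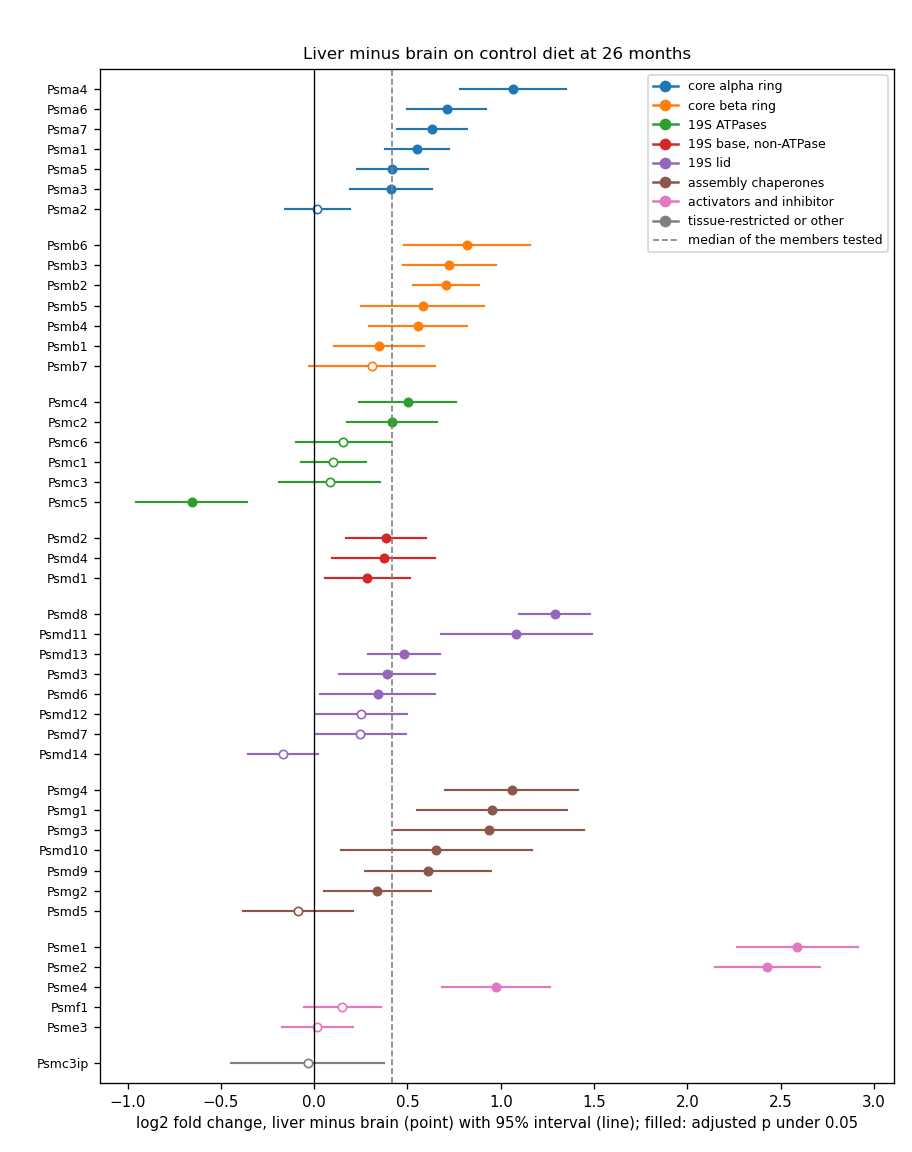
Log2 fold change of each tested member, liver minus brain at 26 months on CD, with 95% intervals, grouped by subcomplex. Filled points passed an adjusted p of 0.05, the dashed line is the median of the members (0.42), and Psme1 (2.59) and Psme2 (2.43) stand to the right of all others.

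The alternative cap showed the largest difference. Psme1 (ENSMUSG00000022216, chr14:55578123-55581529 in GRCm38) had 9.76, 11.6 and 16.6 CPM as lowest, median and highest of the 8 CD brains of 26 months and 49.4, 78.6 and 95.6 CPM in the livers. Psme2 (ENSMUSG00000079197, chr14:55587441-55591113) had 6.10, 8.74 and 9.38 CPM in these brains and 30.8, 46.5 and 53.7 CPM in the livers. For both genes every liver lay above every brain. Psme1 was 6.01-fold higher in the liver (95% interval 4.80 to 7.53, adjusted p = 2.08e-10 by edgeR) and Psme2 5.38-fold (4.43 to 6.54, adjusted p = 8.47e-11). By total counts alone the log2 fold changes were 2.33 and 2.17. Set against the core they cap, the mean of Psme1 and Psme2 per kb was 0.285 ± 0.0319 of the mean of the 14 core subunits in the brain and 1.09 ± 0.18 in the liver (SD, n = 8), a ratio within libraries that no scaling of libraries can move. Per kb of exon union it was 0.273 and 1.04. It ran from 0.245 to 0.338 over the brains and from 0.895 to 1.35 over the livers. The other activators and the inhibitor did not follow as a group. PA200 (Psme4), a large activator of the nucleus, was 1.97-fold higher in the liver (1.61 to 2.40), whereas Psme3 had a log2 fold change of 0.02 (95% interval -0.17 to 0.21) and Psmf1 of 0.15 (-0.056 to 0.36). By total counts alone Psme3 was called lower in the liver, at -0.23.

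The level of Psme1 was set beside the summed macrophage markers in single livers. CD liver 4 had the highest Psme1, 95.6 CPM, with 560 CPM of the 8 macrophage markers, and CD liver 3 had 53.1 CPM with 5556 CPM of them. CD liver 2, with the lowest macrophage sum of the CD livers at 234 CPM, had 79.1 CPM. CD livers 5, 6 and 7 had 78.6, 65.5 and 92.1 CPM with macrophage sums of 5833, 5262 and 5993 CPM. CD livers 1 and 8 had 49.4 and 78.6 CPM with 245 and 1181 CPM. The ratio of Psme1 and Psme2 to the core was 1.28, 1.21 and 1.35 in CD livers 5, 6 and 7. It was 0.901 in CD liver 3 and ran from 0.895 to 1.13 in CD livers 1, 2, 4 and 8. Among the KD livers, liver 12 was highest for Psme1 (91.9 CPM), Psme2 (53.1 CPM), Psmb8 (26.7 CPM), Psmb9 (37.7 CPM), Psmb10 (48.1 CPM) and for the macrophage markers (2825 CPM). The part of macrophages in these levels was not tested.

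**Figure D3:**
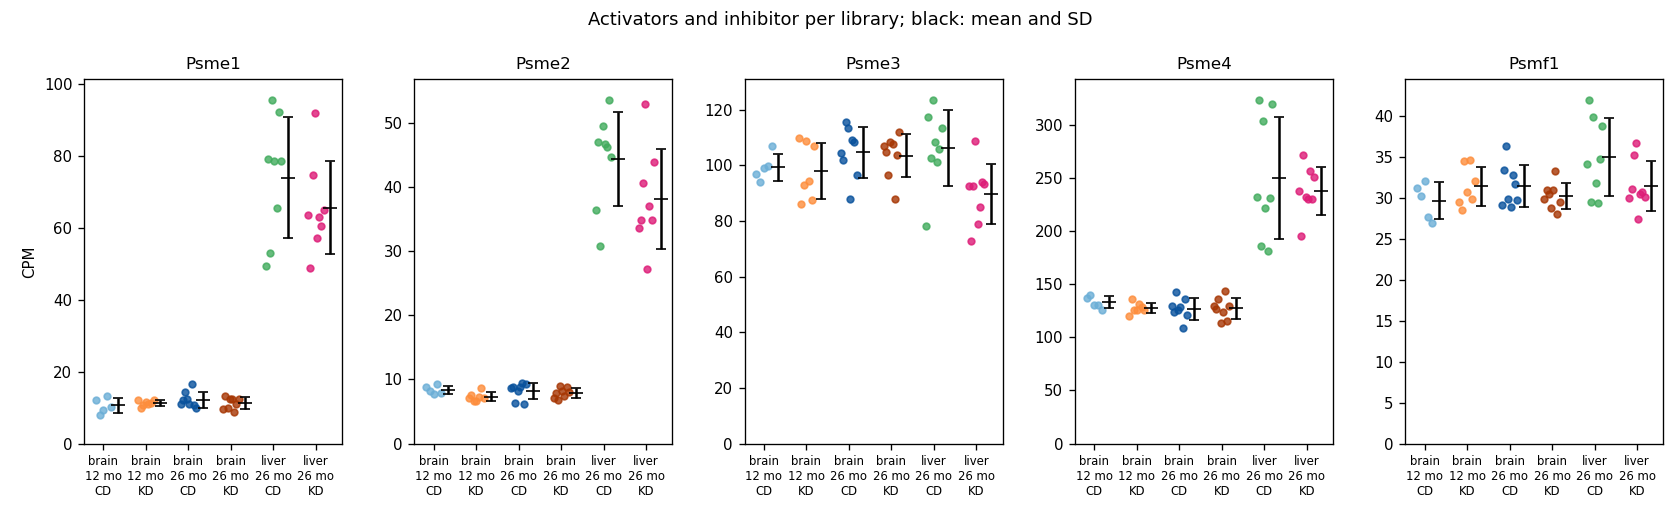
CPM of the 4 activator genes and of the inhibitor gene Psmf1 in all 44 libraries by group, with the group mean and SD in black and axes that start at 0. Psme1 and Psme2 lie between 48.9 and 95.6 CPM and between 27.2 and 53.7 CPM in the livers and at most 16.6 and 9.38 CPM in the brains, while the groups overlap for Psme3 and Psmf1.

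Within the particle, core and cap differed in how far the liver exceeded the brain. The median log2 fold change was 0.55 in the alpha ring (6 of 7 members higher), 0.58 in the beta ring (6 of 7), 0.13 among the ATPases (2 of 6 higher and 1 lower), 0.37 in the rest of the base (3 of 3) and 0.37 in the lid (5 of 8). The mean of the 14 core subunits divided by the mean of the 17 subunits of the 19S particle was 1.04 ± 0.0255 in the brain and 1.24 ± 0.0532 in the liver. The highest brain of this group, at 1.08, lay below the lowest liver, at 1.18. Per kb of exon union the ratios were 0.915 and 1.14, and the highest brain, at 0.948, again lay below the lowest liver, at 1.08. In level, the mean of the 31 subunits was 33.5 ± 2.12 CPM per kb in the brain and 46.6 ± 7.29 in the liver.

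The lid gene Psmd8 (ENSMUSG00000030591, chr7:29174188-29180701) stood out among the subunits. It had 46.2, 57.3 and 59.1 CPM as lowest, median and highest in the brains and 106, 139.6 and 168.2 CPM in the livers, with every liver above every brain. Its fold was 2.44 (2.14 to 2.79, adjusted p = 1.36e-09 by edgeR). The lid gene Psmd11 was 2.12-fold higher (1.6 to 2.80), from 75.1 to 86.5 CPM in the brains and from 96.2 to 241 CPM in the livers. In contrast, the deubiquitinase Psmd14 of the same lid had a log2 fold change of -0.17 (-0.36 to 0.020), with overlapping ranges of 42.7 to 56.2 CPM and 35.6 to 54.2 CPM. It was called lower in the liver by DESeq2, limma, RLE scaling and total counts. In the core, Psma4 was 2.09-fold higher (1.72 to 2.55) and Psmb2 1.63-fold (1.44 to 1.84). Psma4 had 20.6, 21.9 and 23.8 CPM in the brains and 33.2, 43.5 and 63.4 CPM in the livers, and Psmb2 had 40.2, 47.1 and 53.4 CPM and 60.9, 78.0 and 90.6 CPM, again without overlap.

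The ATPase Psmc5 (ENSMUSG00000020708, chr11:106256154-106263120) was the member called lower. It had 53.0, 69.1 and 79.7 CPM in the brains and 29.6, 42.7 and 54.0 CPM in the livers, so that the highest liver overlapped the lowest brain. It was 0.635-fold in the liver (0.517 to 0.779, adjusted p = 0.00044 by edgeR), and by total counts the log2 fold change was -0.94. The other ATPases, which form 1 ring with it, ran from 0.08 for Psmc3 to 0.50 for Psmc4. For Psmc1, with 74.7, 90.2 and 94.7 CPM in the brains and 78.0, 98.9 and 107 CPM in the livers, the interval of the log2 fold change was -0.073 to 0.28. In all, 16 of the 47 members had every liver above every brain and none had every liver below. Of the 21073 genes of at least 1 CPM, 4429 had every liver above and 6012 every liver below, 49.5% in both directions together.

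The catalytic subunits Psmb5 and Psmb6 were higher in the liver, by 1.5-fold (1.19 to 1.88) and 1.76-fold (1.40 to 2.23), while Psmb7 did not pass at 1.24-fold (0.982 to 1.57). Their inducible counterparts, which replace them in the immunoproteasome and were left out of the members by the rule, differed far more. Psmb8, Psmb9 and Psmb10 had log2 fold changes of 4.13, 4.52 and 1.71, all called higher. Per kb, Psmb8 was 5.78% ± 2.91 of Psmb5 in the CD brains of 26 months and 68.5% ± 44.3 in the livers, Psmb9 was 2.03% ± 0.813 of Psmb6 and 30.5% ± 21.4, and Psmb10 was 20.4% ± 3.01 of Psmb7 and 60.9% ± 28.4 (SD, n = 8). In the livers these shares were spread widely, from 29.0% to 154% for Psmb8. Of immune cell markers, all those tested were called higher in the liver, 7 for liver macrophages (median 7.92), 3 for neutrophils (5.53) and 6 for T cells (3.41). A marker with few counts in the brain could enter this test through the livers alone. Of 8 microglia markers, 4 were higher and 1 lower in the liver (median 1.63). CD livers 5, 6 and 7 had the highest Psmb8, at 19.4, 30.01 and 32.2 CPM, and macrophage sums of 5833, 5262 and 5993 CPM, while CD liver 3 had 16.9 CPM with 5556. The part of these cells was not tested.

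Of the chaperones, 6 of 7 were higher in the liver, with a median of 0.65. The core chaperones Psmg4 and Psmg1 had log2 fold changes of 1.059 and 0.95, and the exception was the base chaperone Psmd5, at -0.09 (-0.38 to 0.21). The other genes of the pathway moved in both directions. Of 13 genes for assembly and regulation outside the members, 4 were higher and 7 lower in the liver. Among them Fbxo7, a ubiquitin ligase adaptor that binds PI31, had -1.15, the proteasome-bound deubiquitinase Usp14 had -0.80, and the small lid subunit Sem1 had 0.97. Of 8 genes of the Nfe2l1 route, 6 were higher and 2 lower, led by Nfe2l2 at 2.94, the protease Ddi2 at 2.41 and the glycanase Ngly1 at 0.95. Of 6 genes for ubiquitin and its activation, 3 were higher and 1 lower, with Rps27a at 0.79 and Ubb at -0.35. Of 13 shuttle and Vcp genes, 6 were higher and 5 lower, with the shuttle Ubqln2 at -2.09, Ddi2, which is on both lists, and the Vcp cofactor Nploc4 at 0.99. Of 10 heat shock genes, 5 were higher and 2 lower, with Bag3 at 2.66, Hspd1 at 1.66 and Hspb1 at 2.81. All 20 interferon gamma targets were higher, with H2-K1 at 5.36, B2m at 3.56 and H2-D1 at 4.27.

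The second comparison asks how the members changed between 12 and 26 months in the brain on CD. No member passed the threshold, where 1.26% of 22079 genes did, and most members lay slightly higher in the old brains. Of 44 members, 37 had a log2 fold change above 0, against 49.5% of all genes, and the median was 0.092 against -0.002 for all genes. At an unadjusted p under 0.05 there were 9 members, all higher, a share of members to be read against 11.8% of all genes. They were Psmb1, Psmb2, Psmb3 and Psmb6 of the beta ring, Psma6 and Psma7 of the alpha ring, Psmd6 and Psmd12 of the lid and the chaperone Psmd5. Members share their libraries, and a library that is high for 1 subunit tends to be high for the others, so these are not 9 separate observations. Limma with sample weights gave 17 such members, against 3187 of 22079 genes. The fit without a filter on low counts gave 1, against 10584 of 50709 genes, and the replicate block gave 0, against 2411 of 20415 genes. The block kept only the brains whose replicate numbers occur at both ages, 3 at each age. A brain of 12 months and a brain of 26 months come from different mice, so equal numbers do not pair them. With this smaller fit 29 members lay above 0 and the median was 0.049. Without the filter the median of members was 0.052 and that of all 50709 genes 0.21. The genes added to the 22079 by this setting are those with few counts. The old CD brains had 32957 to 44304 genes with a count and the young ones 30019 to 31181. The median of all genes is therefore over a different set of genes here, and the standing of the members against it is not the same comparison.

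The smallest p was that of Psmb1 (ENSMUSG00000014769, chr17:15475021-15499751), a structural subunit of the beta ring. It had 53.3, 55.2, 57.7, 57.7 and 58.3 CPM in the 5 brains of 12 months and 57.8, 66.4 and 70.6 CPM as lowest, median and highest of the 8 brains of 26 months. The groups overlapped at the lowest old brain. The log2 fold change was 0.21 ± 0.060 (SE), a fold of 1.16 (95% interval 1.063 to 1.261), with an adjusted p of 0.084 by edgeR. Psmb1 passed by DESeq2 (adjusted p = 0.026) and by limma with sample weights (adjusted p = 0.0132), and without the old CD brain 7 (adjusted p = 0.032 by edgeR), and over the alternatives its adjusted p ran up to 0.48.

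The next members were close to the spread between mice. Psmd6 of the lid had 40.1, 41.5, 41.6, 43.2 and 44.3 CPM at 12 months and 42.0, 47.2 and 52.1 CPM at 26 months, a log2 fold change of 0.16 ± 0.056 (adjusted p = 0.19 by edgeR). The chaperone Psmd5 had 48.1, 48.1, 49.5, 50.1 and 53.9 CPM and 51.2, 55.6 and 64.6 CPM, a log2 fold change of 0.16 ± 0.059 (adjusted p = 0.22 by edgeR). In both genes the ranges overlapped. Psmd12 of the lid had 41.6, 45.7, 45.9, 45.9 and 47.9 CPM and 46.2, 51.6 and 62.9 CPM, a log2 fold change of 0.20 ± 0.077 (adjusted p = 0.26 by edgeR). The catalytic Psmb6 had 28.2, 30.4, 31.01, 31.5 and 32.1 CPM and 29.2, 34.7 and 38.4 CPM, a log2 fold change of 0.16 ± 0.063 (adjusted p = 0.27 by edgeR). No member had every old brain above or below every young one, where 1.40% of genes of at least 1 CPM did.

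**Figure D4:**
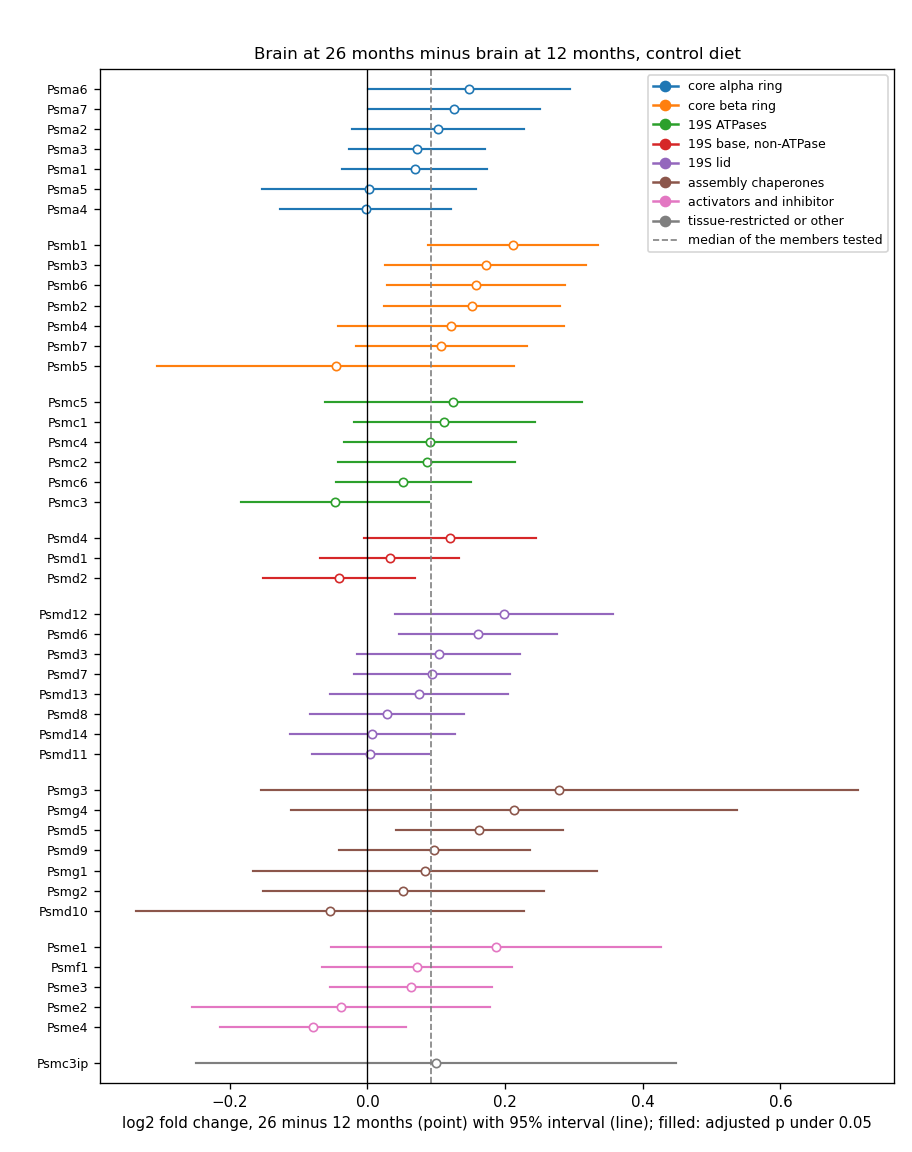
Log2 fold change of each tested member in the brain, 26 minus 12 months on CD, with 95% intervals, grouped by subcomplex. No point is filled, since none passed an adjusted p of 0.05, and the dashed median of the members lies at 0.092.

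By subcomplex, the medians of the log2 fold change with age were 0.072 in the alpha ring, 0.15 in the beta ring, 0.088 among the ATPases, 0.033 in the rest of the base, 0.084 in the lid, 0.097 among the chaperones and 0.063 among activators and inhibitor. All 8 lid members lay above 0, none of them called. The catalytic Psmb5 had -0.05 (-0.31 to 0.21), with 9.85, 10.2, 10.5, 10.6 and 12.0 CPM at 12 months and 6.35, 10.6 and 12.6 CPM at 26 months. Psmb7 had 0.11, Psme4 -0.08 and Psme2 -0.04. The mean of the 31 subunits of the 26S particle was 31.2 ± 0.718 CPM per kb at 12 months (n = 5) and 33.5 ± 2.12 at 26 months (n = 8), and the ratio of core to 19S was 1.01 ± 0.0197 and 1.04 ± 0.0255. Of the 43 members tested that act on the proteasome, 41 had an interval of the log2 fold change within ±0.5.

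Other values moved with age in the same brains. Gm10800 took at most 0.0013% of a young CD library and 0.0551% to 1.22% of an old one. Without the libraries high in it, 39 members lay above 0 with a median of 0.12, and Psmb1 passed (adjusted p = 0.039 by edgeR). High meant over 0.5% here, so of the compared brains only CD brain 5 of 26 months was left out. The old CD brains that were kept held 0.0551% to 0.483%, still above every young one. This setting therefore cannot separate age from Gm10800. The summed microglia markers were 176 to 225 CPM at 12 months and 202 to 288 CPM at 26 months, and the summed oligodendrocyte markers 2496 to 4032 CPM and 3648 to 5442 CPM. Their part in the levels of the members was not tested.

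Of the inducible subunits with age, Psmb8 had a log2 fold change of 0.89 ± 0.34, Psmb9 of 0.71 ± 0.28 and Psmb10 of 0.11 ± 0.13, none called (smallest adjusted p = 0.26 by edgeR). Psmb8 stood at 0.281 to 0.812 CPM in the 12-month CD brains and 0.512 to 1.53 CPM in the old ones. Per kb it was 2.73% ± 0.989 of Psmb5 at 12 months (SD, n = 5) and 5.78% ± 2.91 at 26 months (SD, n = 8). The highest old brain had 11.8%. Of 19 interferon gamma targets tested, 3 were called higher and none lower: B2m (0.64), H2-K1 (0.77) and Nlrc5 (1.25), which serve antigen presentation by MHC class I. PA28, induced by the same cytokine, was not called, with 0.19 for Psme1 (-0.054 to 0.43) and -0.04 for Psme2. None of the 8 genes of the Nfe2l1 route was called, with the largest values for the small Maf genes Maff (1.10, adjusted p = 0.083 by edgeR) and Mafk (0.63) and for Nfe2l2 (0.27). None was called among the 13 genes of assembly and regulation, led by Fbxo7 (0.19), Uchl5 (0.17) and Akirin2 (-0.13), the 6 of ubiquitin, led by Rps27a (0.20) and Uba6 (-0.12), the 13 shuttle and Vcp genes, led by Ufd1 (0.12), Ubqln1 (0.09) and Ubqln4 (-0.16), or the 10 heat shock genes, led by Hspe1 (0.27), Bag3 (0.39) and Hsph1 (-0.26).

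The diet comparisons gave no call among the members. After the one-week KD, 0 of 44 members passed in the 12-month brain, where 0.00453% of all genes did, and 0 had an unadjusted p under 0.05, against 2.65% of all genes. Of the 44, 12 lay above 0 against 49.4% of all genes, with a median of -0.015, and by total counts alone 19 did. DESeq2 and limma also called none. Leaving out 1 library gave 13 to 21 above 0, with 21 without KD brain 10. This comparison shares its CD brains with the one on age. Marker lists moved with the diet as well, though none of their genes was called. All 7 hindbrain markers lay above 0 (median 1.58) and all 6 choroid plexus markers below (-0.44). Their part in the values of the members was not tested. The 5 members with the smallest p were Psma3 (-0.09), Psme2 (-0.20), Psmc3ip (0.31), Psmc3 (-0.10) and the chaperone Psmd5 (0.08). Psma3 had 74.7, 76.9, 77.3, 79.3 and 80.3 CPM on CD and 68.4, 71.6 and 79.5 CPM as lowest, median and highest of 7 brains on KD. Psme2 had 7.72, 7.85, 8.15, 8.75 and 9.35 CPM on CD and 6.60, 7.18 and 8.71 CPM on KD. For both genes the ranges overlapped, and their intervals, -0.19 to 0.012 and -0.42 to 0.026, held 0. Of the 43 members of the pathway, 42 had an interval within ±0.5.

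After the cyclic KD, 0 of 44 members passed in the brain, where 0% of all genes did. Of the 44, 1 had an unadjusted p under 0.05, against 4.52% of all genes. Again 12 lay above 0, against 49% of all genes, with a median of -0.034, and DESeq2 and limma called none. By total counts alone 7 members had an unadjusted p under 0.05, against 1023 of 22079 genes. Without CD brain 4 there were 5 such members, against 1201 of 22035 genes. Leaving out 1 library moved the count above 0 from 8 to 18, with 8 without CD brain 5 and 18 without CD brain 2, and the median from -0.052 to -0.012. In these brains all 7 hindbrain markers (median -1.04) and all 6 choroid plexus markers (-0.46) lay below 0, none called, and their part was not tested. The smallest p was that of the base chaperone Psmd9, with 16.3, 19.8 and 24.0 CPM on CD and 16.7, 17.9 and 20.7 CPM on KD and a log2 fold change of -0.12 (95% interval -0.24 to -0.00056). In the annotation 25.5% of its exon bases are shared with Gm26745 on the other strand, which had a mean of 0.017 CPM, and whether the counting used the strand is not given in the sources used here. Next came Psma6 (-0.12), Psmd13 (-0.11), Psmd6 (-0.09) and Psmb3 (-0.12). Under TMM scaling all 7 members of the alpha ring lay below 0, from -0.12 to -0.017, none of them called. For Psma6 the CD brains had 32.2, 35.6 and 42.9 CPM and the KD brains 26.6, 34.3 and 37.3 CPM, with wide overlap. This comparison shares its CD brains with the one on age, and these brains enter both with opposite sign. For Psmb1 the log2 fold changes were 0.21 with age and -0.09 with diet, for Psmd6 0.16 and -0.09, for Psmd12 0.20 and -0.10 and for Psmb3 0.17 and -0.12. All 43 intervals of the members of the pathway lay within ±0.5.

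The test of the difference between the diet effects at 26 and at 12 months also called 0 of 44 members, where 0% of all genes were called, and 1 had an unadjusted p under 0.05, against 4.52% of all genes. Of the 44, 21 lay above 0, against 50.7% of all genes. The 7 hindbrain markers all lay below 0 here (median -2.52), none called. The members with the smallest p were Psmd5 (-0.17), Psmd9 (-0.18), Psmd12 (-0.17), Psmf1 (-0.14) and Psmb1 (-0.11). Psmd5 had medians of 49.5 and 53.0 CPM on CD and KD at 12 months and of 55.6 and 51.9 CPM at 26 months, with overlapping ranges at either age. DESeq2 and limma called none here either.

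In the liver, the cyclic KD gave 0 calls among 45 members and 0% among all 18002 genes tested by edgeR. Only 1 member had an unadjusted p under 0.05, against 15.5% of all genes. Of the 45, 20 lay above 0 against 55.8% of all genes, with medians of -0.015 for members and 0.043 for all genes. DESeq2, which called 177 genes over all, and limma, which called 0, called no member. Without CD liver 1 edgeR called 117 genes, none of them a member. The count of members above 0 was 11 under RLE scaling, 8 by limma and 7 without the filter on low counts, and leaving out 1 library gave 11 to 28, with 28 and a median of 0.032 without CD liver 2, 28 and 0.022 without CD liver 4, and 27 and 0.030 without KD liver 10. The one member with an unadjusted p under 0.05 was Psmd8, which was also the subunit with the largest excess in the liver over the brain. It had 106, 139.6 and 168.2 CPM in the CD livers and 86.9, 106 and 128 CPM in the KD livers, a log2 fold change of -0.23 (95% interval -0.42 to -0.051, adjusted p = 0.29 by edgeR). The ranges overlapped.

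The next were Psma7 (-0.19), Psmb2 (-0.16), Psmc1 (-0.15) and Psma6 (-0.11), whose intervals all held 0. Psma7 had 50.9, 65.6 and 68.4 CPM on CD and 37.9, 48.9 and 66.2 CPM on KD, and Psmb2 60.9, 78.0 and 90.6 CPM and 52.3, 60.1 and 79.2 CPM. Psmc1 had 78.0, 98.9 and 107 CPM and 53.0, 76.2 and 97.8 CPM. In each of these the medians were lower on KD and the ranges overlapped. PA28 had log2 fold changes of -0.03 for Psme1 and -0.09 for Psme2, with medians of 78.6 and 63.4 CPM for Psme1 and 46.5 and 36.0 CPM for Psme2 on CD and KD. The fold changes were scaled within the livers and the CPM over all 44 libraries, so the 2 are not on the same scale. The mean of the 31 subunits was 46.6 ± 7.29 CPM per kb on CD and 41.4 ± 5.04 on KD, and the ratio of core to 19S was 1.24 ± 0.0532 and 1.24 ± 0.0455. The liver was less precise than the brain, with 38 of 43 intervals within ±0.5. Without the 6 livers high in Gm10800, of which 5 were on KD, no member was called either, and 18 lay above 0. The inducible subunits had -0.58 for Psmb9, -0.41 for Psmb8 and -0.13 for Psmb10, none called, while the liver macrophage markers had a median sum of 3221 CPM on CD and 440 CPM on KD. Their part in these values was not tested. None of the other listed genes was called in a diet comparison by edgeR, over 7 lists and 4 comparisons.

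**Figure D5:**
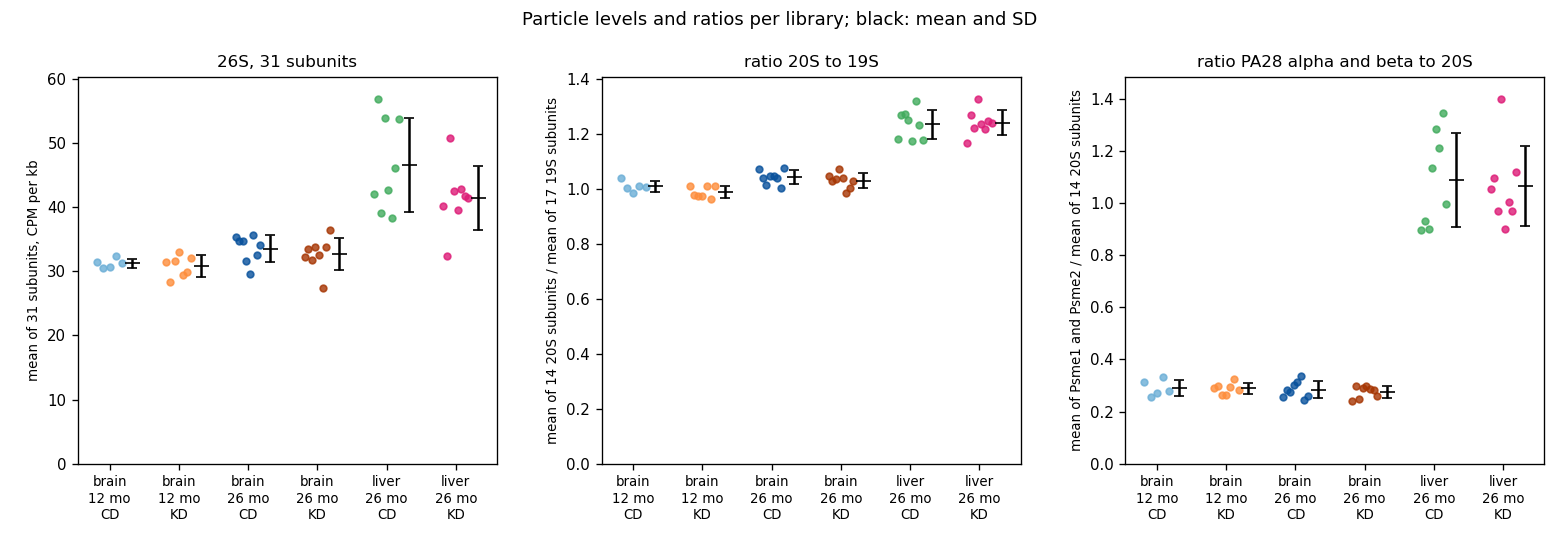
Mean CPM per kb of the 31 subunits of the 26S particle, the ratio of the 14 core to the 17 19S subunits, and the ratio of Psme1 and Psme2 to the core, for each of the 44 libraries by group, with the group mean and SD in black and axes that start at 0. Both ratios separate livers from brains without overlap, and within a tissue the diet groups overlap in each panel.

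Across the 6 groups, a panel of 12 genes was followed by group medians. In the brain, group medians ran from 9.25 to 10.6 CPM for Psmb5, from 31.01 to 34.9 CPM for Psmb6, from 36.8 to 43.8 CPM for Psmb7 and from 36.2 to 40.6 CPM for Psma7, within the range over mice of a single group. They ran from 79.6 to 90.2 CPM for Psmc1, from 78.4 to 81.9 CPM for Psmd11 and from 46.7 to 50.5 CPM for Psmd14. Those of the activators ran from 10.3 to 11.7 CPM for Psme1, from 7.18 to 8.74 CPM for Psme2, from 94.4 to 106 CPM for Psme3 and from 126 to 131 CPM for Psme4, and those of the inhibitor Psmf1 from 30.1 to 30.7 CPM. In the livers on CD and KD the medians were 15.8 and 14.3 CPM for Psmb5, 54.4 and 56.0 CPM for Psmb6, 52.0 and 52.2 CPM for Psmb7, 172 and 168.05 CPM for Psmd11, 43.9 and 39.8 CPM for Psmd14, 107 and 92.5 CPM for Psme3, 232 and 235 CPM for Psme4 and 34.4 and 30.6 CPM for Psmf1. For every member, the groups set against each other by age or diet within a tissue overlapped in range. So did nearly all genes of at least 1 CPM. With diet, 0.033% of them were apart in the liver and 0.21% and 0.0047% in the brain at 12 and 26 months. With age, 1.40% were apart.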

How the data were processed

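Total RNA of whole brain and whole liver was sequenced after removal of ribosomal RNA. Trimmomatic, STAR on GRCm38 and RSEM were used in turn, and the authors deposited whole-number counts per gene. Versions, and whether the counting used the strand, are not given in the sources used here. Counts were tested with edgeR 4.0.16 in R 4.3.3 (filterByExpr, TMM, quasi-likelihood test, Benjamini-Hochberg adjusted p under 0.05 over all genes tested). Liver diets, the 4 brain groups, and liver against brain on CD at 26 months were fitted separately, and the interaction tested the diet effect at 26 minus that at 12 months. Levels are CPM scaled by TMM over all 44 libraries, and per kb they use the transcript with the longest coding sequence. Intervals are 95%. The labels number the samples of a group and do not describe how they were separated, so p-values measure the spread between these samples. Total counts per library, 6879726 to 12744415, limit the precision of low members.

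The members, gene lists and tests were chosen with earlier results of these data known. Genes named were the 5 members with the smallest p in each comparison and those called (where over 10 were called, 5 in each direction), a panel of 12 members, the highest and lowest per kb in each subcomplex, members not detected or not subunits, the 3 inducible subunits, and the 3 genes of each other list with the smallest p. Other genes named were chosen after their values were seen. Values that this rule would give for some genes of the ubiquitin list are not reported here. Alternatives were DESeq2 1.42.0, limma 3.58.1 with sample weights, RLE factors, total counts alone, no filter, the compared groups alone, a replicate block and each replicate left out. Leaving out the libraries high in Gm10800, and the union of exons as length, were chosen after seeing the data. The edgeR step was tested on simulated data. Sequences come from the RefSeq promoter table.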

Additional observations from a re-analysis of the deposited data

Results flagged for a closer look

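A lowest or highest library stood apart from the rest of its group by Dixon's test at 95% in 8 of 150 groups of values (5.33%), where chance gives about 1 in 20. Brain KD 14 of 26 months was lowest for 3 of them. It had 31.7 CPM for Psma7 (others 38.2 to 43.7), 27.2 CPM per kb for the mean of the 20S core (others 32.4 to 37.0) and 29.9 CPM per kb for the beta ring (others 36.5 to 41.8), and Gm10800 held 0.991% of its counts. Brain CD 5 of 26 months, where Gm10800 held 1.22%, was lowest for the lid at 25.6 CPM per kb (others 28.5 to 30.6). Liver KD 10, where Gm10800 held 2.39%, was lowest for Psmb7 at 39.6 CPM (others 50.6 to 53.8). The part of Gm10800 in these values was not tested. Liver KD 12 was highest for the ratio of Psme1 and Psme2 to the core, at 1.40 (others 0.902 to 1.12), and had the highest macrophage sum of the KD livers, 2825 CPM. Among the 12-month brains, KD 2 was highest for Psmd14 at 54.8 CPM (others 44.8 to 47.6) and KD 10 was lowest for the chaperones at 5.68 CPM per kb (others 6.35 to 6.86).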

How the results depend on the processing

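In the diet comparisons and their interaction, no member was called under any alternative run. With age, 1 member, Psmb1, was called higher by DESeq2, by limma with sample weights, by total counts alone and without the libraries high in Gm10800, and leaving out 1 library at a time gave 0 to 1, with 1 without the CD brain 7 of 26 months. For liver against brain, total counts alone gave 20 members higher, 5 lower and a median of 0.16, where 6109 of 20463 genes were higher and 9533 lower. DESeq2, limma and RLE factors gave 2 lower, the second being Psmd14, where 8586 to 8828 genes were lower. Leaving out 1 library gave 29 to 36 higher and 1 to 2 lower, with 2 without CD liver 2. Genes called in either direction then numbered 15686 to 16148. The cause was not tested. Genes called with age numbered 278 by edgeR, 499 by DESeq2, 121 with the compared groups alone and 13 with a replicate block. In the liver diets DESeq2 called 177 genes and edgeR 0, or 117 without CD liver 1. The labels do not say that equal replicate numbers share a mouse. Correlations of same-numbered samples ran from -0.27 to 0.23 over 3 pairs with age, and from -0.033 to 0.10 over 8 pairs of liver and brain, 4 of which correlated best with their own number. With age 0 of 3 did, and brains of different ages cannot come from the same mouse. For liver and brain this is a hint from the data, not the design, and the samples were not treated as paired. With the replicate block, which left 3 brains at each age, 0 members were called with age, where 13 of 20415 genes were. Between tissues the block gave 28 members higher and 1 lower, where 6788 of 20463 genes were higher and 8475 lower. Of the values of named members under the alternatives, 5 of 105 with age, all of Psmb1, passed where the main value did not, and none reversed in any comparison. Depth limits Psma8, Psmb11, Psme2b and Psmc3ip.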
